A study of Drosophila melanogaster with 54 samples.

Results

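The male and female control libraries of Drosophila melanogaster blastoderm embryos were compared, 4 labelled male and 2 labelled female, out of 54 libraries in the series. They are the control columns of the stage 5 count table, chosen by their labels alone. Each library was made from polyadenylated RNA of 1 embryo in nuclear cycle 14, the cycle in which the syncytial blastoderm forms cells. Mothers of the embryos carried the maternal driver mat-a-tubGal4 (stock 7062), which is active in the female germline, and were crossed to their siblings. The genotype field of the 4 male libraries names a control RNAi line (stock 36304), whereas that of the 2 female libraries, titled as controls, names the mof RNAi line (stock 58281). The remaining 6 stage 5 libraries, 4 labelled male and 2 labelled female with mof RNAi, entered the fit for its estimate of the spread. For the contrast of control males and females at gastrulation, 7 male and 6 female control libraries of stage 7 were used. Their genotype fields name the same driver (stock 7062) and, in both sexes, the control RNAi line (stock 36304). The submitters assigned sex after sequencing from msl-2, Sxl, tra and tra2, so these 4 genes are described below without a test. The 2 female libraries held high levels of egg RNAs and the 4 male libraries low levels. Embryo age, sex and the RNAi line named in the genotype field cannot be told apart in this contrast. It is read mainly as loss of egg RNA and activation of the zygotic genome.

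A fly embryo starts on RNAs and proteins that the mother loads into the egg. During the maternal-to-zygotic transition, egg RNAs are degraded in successive waves while the embryo's own genome is switched on, first for a small set of short genes and broadly in nuclear cycle 14. In that cycle the nuclei pause before mitosis, membranes grow between them, and gap, pair-rule and dorsoventral genes form their patterns. Dosage compensation of the single male X by the MSL complex, which holds the acetyltransferase MOF and the roX RNAs, starts in the same period.

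The stage 5 control libraries held 28.28 to 37.82 M counted reads (M, units of 1e6), and the 13 stage 7 control libraries 6.84 to 9.56 M. Levels are counts per 1e6 counted reads (CPM), given for females 1 and 2 and then for males 1, 2, 3 and 4. A CPM is a share of its library, and fewer cells with a transcript and less RNA per cell cannot be told apart. CPM does not correct for gene length and is compared between libraries only. Values in brackets after a gene are the log2 fold change, male over female, its standard error and its adjusted p. The test was edgeR's quasi-likelihood test, and p was adjusted over all genes tested by the Benjamini-Hochberg method. Higher and lower mean past an adjusted p of 0.05. Each replicate is a separate embryo. Where a gene overlaps another annotated gene its value is uncertain, since nothing states whether reads were counted by strand. No control libraries held identical counts. On log2 CPM the 2 females correlated at 0.993 across genes. Males 1, 2 and 4 correlated with each other at 0.986 to 0.995 and with male 3 at 0.947 to 0.957. Male 3 thus stood apart from the other males, and the number of called genes without it is given below.

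Of 9103 genes tested, 62.0% passed. Higher in males were 34.5% of the tested genes, and lower 27.5%. In 71.2% of tested genes the CPM ranges of the 2 groups did not overlap. The share of calls that were higher in males was 55.6%, and 70.4% with upper quartile scaling. The median log2 fold change over all tested genes was 0.32, against 0.45 with RLE scaling, 0.83 with upper quartile scaling and 0.14 with total counts. The list medians below are read against the first of these. Without female 1 the genes higher in males numbered 2037, and without female 2 1932, against 3139 with both.

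The genes that carried the sex labels were first compared with genes that did not. The RNA of msl-2, the MSL subunit made in males, stood at 3.42 and 1.33 CPM in females and 150.1, 168, 47.5 and 228 in males. Sxl, the female switch gene, stood at 32.5 and 34.5 CPM in females and 47.8, 48.2, 31.5 and 84.1 in males, and 3 of the 4 males lay above both females. Expression of tra, the female splicing factor gene, stood at 8.53 and 11 CPM in females and 13.4, 19.1, 8.37 and 15.5 in males, with overlapping groups. Its cofactor gene tra2 stood at 89.7 and 105 CPM in females and 13.3, 13.6, 11 and 15.7 in males, with both females above every male. Counts on Y-linked genes, which did not enter the labels, were 40 and 6 in the females and 222, 222, 198 and 356 in the males. In female 1, 34 of these fell on copies of the Su(Ste) repeat, whose counts could be split between near-identical copies. Outside that repeat the females held 6 counts each and the males 40 to 211. The Y-linked dynein gene kl-3 had no count in either female and 0.703, 0.53, 0.0572 and 1.16 CPM in the males, at least 13.3-fold higher against a floor of 3 counts over both females. For this gene 6 of 16 alternative settings ended the call, adjusted p from 0.00789 to 0.145. The Y-linked CR41423 likewise had no count in the females and 1.37, 1.49, 0.457 and 2.75 CPM in the males, at least 32.9-fold higher. Here 5 of 16 alternative settings ended the call, adjusted p from 0.000384 to 0.132. Of 12 listed Y-linked genes, 2 passed the filter on low counts, of which 1 was higher in males. All 4 male control libraries held more Y-linked counts than either female. Many zygotic genes on other chromosomes were low in the females too, as given below. The Y-linked counts therefore cannot tell sex from embryo age.

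Genes of sex determination and dosage compensation passed in both directions, in shares near those of all tested genes (34.5% higher and 27.5% lower). Of 15 listed, 6 were higher and 4 lower in males, the lower ones 2 with upper quartile scaling. The counts include msl-2, higher, and tra2, lower, which were used for the labels. The RNA of roX1, a noncoding RNA of the MSL complex on the X, stood at 17.4 and 25.8 CPM in females and 426, 536, 306 and 732 in males (4.68 ± 0.42, adjusted p = 3.74e-06). The noncoding RNA roX2, of the same complex, had no count in the females and 0.256, 0.46, 0.629 and 0.899 CPM in the males, at least 12.2-fold higher. With no female count, roX2 could only be higher. The level of msl-1, which encodes the scaffold subunit, was lower in males at 370.5 and 360.5 CPM in females and 74.7, 80.3, 73.5 and 117 in males (-1.92 ± 0.16, adjusted p = 2.26e-06). The RNA of msl-3, a chromodomain subunit whose gene overlaps another annotated gene, was lower as well at 84.2 and 98.5 CPM in females and 41.6, 49.5, 22 and 46.7 in males (-1.04 ± 0.29, adjusted p = 0.00868). Its call was lost with upper quartile scaling (adjusted p = 0.146) and without female 2 (adjusted p = 0.0657). Expression of mof itself stood at 677 and 531 CPM in females and 272, 331, 414 and 268 in males, a difference that did not pass (-0.71 ± 0.37, adjusted p = 0.112). It passed as lower without male 3 (adjusted p = 0.0366), with total count scaling (adjusted p = 0.0408) and without the mof libraries labelled male 1 and 2 (adjusted p = 0.0321). The genotype fields of the 2 groups also name different RNAi lines, that of the females the mof line. For mof and the MSL genes this cannot be told apart from age and sex.

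Markers of other tissues were low in the control libraries. The summed level of 12 eggshell and follicle cell genes was 0.483 to 1.52 CPM in females and 1.32 to 2.97 CPM in males. Markers of differentiated late embryos summed to 0.38 to 0.912 CPM in females and 9.37 to 53.5 CPM in males. The 4 of 9 listed that passed the filter on low counts were higher in males, and 2 of them had no count in the females. A gene with no count in the females passes that filter only through other libraries, so it could only be higher. Most of the late embryo sum in males was elav, a neuronal RNA-binding protein gene, at 0.345 and 0.359 CPM in females and 15.9, 16.7, 7.37 and 48.7 in males. Of the eggshell list 3 genes were tested and 1, the chorion gene Cp18, was higher in males (0.447, 0.884, 0.457 and 0.317 CPM against no count in the females). Cp18 too could only be higher, for the same reason. The part of these markers in the results was not tested.

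**Figure D1:**
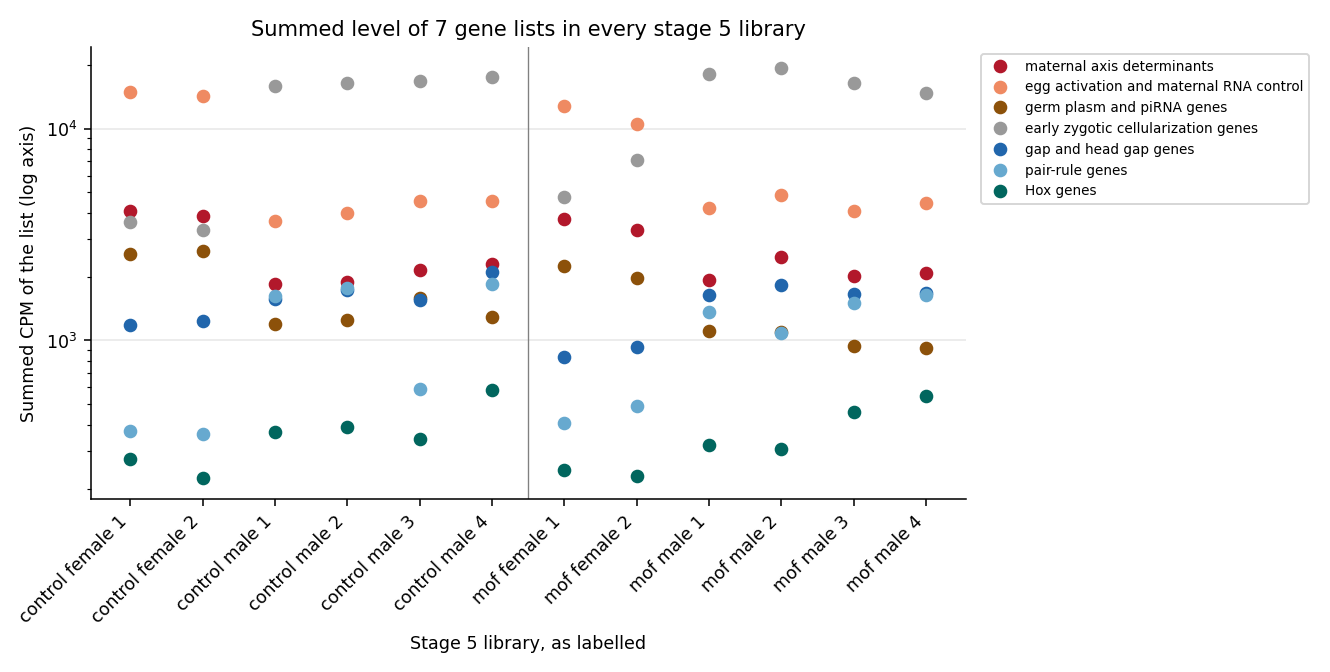
Summed CPM (log axis) of 7 gene lists in each of the 12 stage 5 libraries, 1 point for each list and library. The vertical line separates control from mof libraries. The 3 maternal lists are higher in the 2 control females than in the 4 control males, and the cellularization list is lower in them. Pair-rule genes sum to 591 CPM in male 3 and to 1621 to 1851 CPM in the other 3 males.

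Maternal determinants of the body axes were mostly lower in males. Of 22 tested determinants of a list of 23, 1 was higher and 16 lower in males, and 5 did not pass, with a median log2 fold change of -2.08. Their summed level was 3888 to 4067 CPM in females and 1842 to 2291 CPM in males. The level of bcd, the anterior morphogen (chromosome arm 3R, bases 6755842 to 6759466, minus strand, dm6), stood at 246 and 265 CPM in females and 3.87, 3.78, 14.6 and 3.25 in males (-5.06 ± 0.86, adjusted p = 0.000385). Male 3 held more bcd RNA than any other male and far less than either female. The RNA of osk, which builds the posterior germ plasm, stood at 45.9 and 56.6 CPM in females and 1.47, 2.33, 2.49 and 4.12 in males (-4.13 ± 0.46, adjusted p = 1.64e-05). Expression of swa, needed to localize bcd RNA, followed the bcd pattern with 273 and 389 CPM in females and 3.74, 3.22, 17.3 and 4.47 in males (-5.26 ± 0.69, adjusted p = 5.68e-05). The level of nos, the posterior determinant, was lower by a smaller fold, at 83.7 and 96.5 CPM in females and 25.9, 26.6, 30.2 and 34.1 in males (-1.45 ± 0.22, adjusted p = 0.000197). For osk, swa and nos too both females lay above all 4 males. The members higher in males numbered 4 with upper quartile scaling.

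The maternal dorsoventral pathway held members that were lower and members that did not pass. The RNA of gd, an upstream protease, stood at 32.2 and 34.4 CPM in females and 2.36, 1.87, 6.77 and 1.37 in males (-3.17 ± 0.59, adjusted p = 0.000758). Expression of spz, the ligand of Toll, stood at 61.5 and 75.4 CPM in females and 2.97, 2.37, 3.09 and 6.64 in males (-4.02 ± 0.50, adjusted p = 3.89e-05). All 4 males lay below the females for both. Inside the cell, the adaptor gene tub stood at 176 and 199.98 CPM in females and 16.7, 18.1, 13.1 and 21.8 in males (-3.27 ± 0.32, adjusted p = 7.45e-06). The kinase gene pll stood at 108 and 118 CPM in females and 15.7, 14.6, 10.0 and 18.7 in males (-2.78 ± 0.42, adjusted p = 0.000179). The level of cact, the inhibitor of Dorsal, overlapped between groups at 858 and 809 CPM in females and 845, 815, 916 and 839.8 in males and did not pass (0.22 ± 0.15, adjusted p = 0.203). It was higher with DESeq2 (adjusted p = 0.0432), with a minimum of 10 CPM and with upper quartile scaling (adjusted p = 0.000656). The RNA of ea, the protease that processes the Toll ligand, also overlapped at 122 and 129.8 CPM in females and 129, 130.3, 183 and 115.2 in males (0.35 ± 0.23, adjusted p = 0.197). It was higher with upper quartile scaling (adjusted p = 0.00515) and with a minimum of 10 CPM (adjusted p = 0.0375). The member that was higher in males was pip, a sulfotransferase gene of the same pathway, at 0.138 and 0.138 CPM in females and 2.84, 2.76, 3.11 and 2.14 in males (4.45 ± 0.71, adjusted p = 0.000913). Expression of tor, the receptor of the terminal system, stood at 175 and 186 CPM in females and 17.4, 23.5, 28.1 and 29.7 in males (-2.69 ± 0.28, adjusted p = 9.79e-06).

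The regulators of egg activation and maternal RNA turnover were themselves mostly lower in males. Of 20 tested members of a list of 22, 1 was higher and 17 lower in males, and 2 did not pass, with a median log2 fold change of -1.93. The genes cup and BicC are listed at 0 in all libraries. The level of smg, the RNA-binding protein that directs clearance of many egg RNAs (chromosome arm 3L, bases 8990317 to 8997989, minus strand), stood at 3070.3 and 2619 CPM in females and 57.2, 67.9, 265 and 105 in males (-4.28 ± 0.57, adjusted p = 6.11e-05). The RNA of wisp, the poly(A) polymerase of egg activation, stood at 971 and 1066 CPM in females and 38.9, 56.9, 47.2 and 91 in males (-3.97 ± 0.26, adjusted p = 7.36e-07). Expression of gnu, a partner of the Pan Gu kinase, stood at 121 and 171 CPM in females and 3.83, 3.93, 3.77 and 5.02 in males (-4.96 ± 0.39, adjusted p = 1.72e-06). For these 3 genes every male lay far below both females. The level of png, the kinase gene, was at 9.05 and 14.6 CPM in females and 3.77, 3.18, 2.83 and 1.72 in males (-1.84 ± 0.53, adjusted p = 0.0101), a call lost without female 2 (adjusted p = 0.0953). The deadenylase gene twin stood at 197 and 234 CPM in females and 30.2, 31, 12.5 and 37.2 in males (-2.82 ± 0.32, adjusted p = 1.84e-05), lowest in male 3. A further deadenylase gene, Pop2, stood at 235 and 272 CPM in females and 118, 118, 93.1 and 126 in males (-0.99 ± 0.14, adjusted p = 0.000112). The RNA of me31B, an RNA helicase of repressed messenger complexes, was lower by 1.961-fold on mean CPM, at 3072 and 3342 CPM in females and 1524, 1563, 1974 and 1482 in males (-0.78 ± 0.18, adjusted p = 0.00285), a call lost with upper quartile scaling (adjusted p = 0.179). Expression of rump, an RNA-binding protein gene, was the member higher in males, at 413 and 384 CPM in females and 576, 584, 589 and 696 in males (0.79 ± 0.16, adjusted p = 0.00125).

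Germ plasm and piRNA genes gave 13 lower and 4 higher in males of 22 tested, with a median log2 fold change of -1.74. Without female 2 the higher ones numbered 2. The level of gcl, needed to form the pole cells, stood at 278 and 319 CPM in females and 12.3, 14.1, 12.9 and 22.1 in males (-4.12 ± 0.26, adjusted p = 6.58e-07). The RNA of armi, a piRNA helicase gene, stood at 101 and 121 CPM in females and 3.23, 4.07, 1.86 and 5.23 in males (-4.81 ± 0.37, adjusted p = 1.66e-06). Expression of ovo, a germline transcription factor gene, stood at 117 and 167 CPM in females and 3.13, 4.53, 2.11 and 11.1 in males (-4.64 ± 0.53, adjusted p = 2.1e-05). Both females lay above every male for these 3. The level of vas, the germ plasm helicase gene, whose span overlaps other annotated genes, was lower by a smaller fold at 46.6 and 66.7 CPM in females and 11.2, 8.59, 8.89 and 10.4 in males (-2.35 ± 0.23, adjusted p = 5.88e-06). The RNA of pgc, which silences transcription in pole cells, stood at 67.1 and 81.6 CPM in females and 21.2, 24.8, 24 and 18.5 in males (-1.56 ± 0.26, adjusted p = 0.000324). Expression of zuc, the nuclease gene of piRNA production, was higher in males at 31 and 32 CPM in females and 67.5, 61.8, 61.6 and 64.3 in males (1.20 ± 0.19, adjusted p = 0.000196). AGO3, an Argonaute gene, was higher at 194 and 127 CPM in females and 207, 233, 217 and 249.5 in males (0.67 ± 0.18, adjusted p = 0.00691), a call lost without female 2 (adjusted p = 0.128).

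Genes that drive or stop the cleavage divisions held members of both roles in both directions. Of 23 tested, 5 were higher and 13 lower in males, and 5 did not pass. The level of stg, the Cdc25 phosphatase that triggers mitosis (chromosome arm 3R, bases 29251826 to 29255800, minus strand), stood at 341 and 407 CPM in females and 10.1, 9.44, 9.26 and 9.46 in males (-5.11 ± 0.27, adjusted p = 2.29e-07), with the 4 males close together. The RNA of twe, the second Cdc25 gene, stood at 317 and 318 CPM in females and 53.5, 50.6, 188 and 47.6 in males (-1.64 ± 0.64, adjusted p = 0.0407), with male 3 between the females and the other males. For this gene 9 of 17 alternative settings ended the call, adjusted p from 0.000855 to 0.123. CycB, a mitotic cyclin gene, stood at 4655 and 4937 CPM in females and 528, 607, 469 and 669 in males (-2.91 ± 0.12, adjusted p = 4.07e-08). CycA stood at 2578 and 2829 CPM in females and 931, 912, 899.9 and 1069 in males (-1.33 ± 0.11, adjusted p = 2e-06). Both cyclins were lower in every male than in either female. Of the inhibitors, Z600 and trbl were higher in males and the kinase genes Wee1 and Myt1 and the Cdk inhibitor gene dap were lower. Z600, the zygotic inhibitor of mitotic Cdk1, stood at 11.8 and 8.51 CPM in females and 1155, 1107, 382 and 966 in males (6.62 ± 0.70, adjusted p = 1.22e-05); its span overlaps another annotated gene. Expression of trbl, which promotes loss of the Cdc25 proteins, stood at 35.5 and 45.2 CPM in females and 441, 417, 311 and 506 in males (3.54 ± 0.23, adjusted p = 6.76e-07). Wee1, which phosphorylates and inhibits Cdk1, stood at 206 and 198 CPM in females and 49.9, 53.1, 65.8 and 51.7 in males (-1.68 ± 0.26, adjusted p = 0.000196). Myt1, a second kinase that inhibits Cdk1, stood at 11 and 21.9 CPM in females and 4.09, 4.03, 1.06 and 4.23 in males (-2.15 ± 0.45, adjusted p = 0.00164). The level of dap, an inhibitor of Cyclin E and its kinase, stood at 34.7 and 48 CPM in females and 2.36, 3.29, 1.8 and 5.92 in males (-3.49 ± 0.39, adjusted p = 1.67e-05). All 4 males lay below both females for these 3, and Wee1 overlaps another annotated gene. The checkpoint kinase gene grp was lower at 254 and 319 CPM in females and 40.8, 49.4, 46.8 and 57.2 in males (-2.38 ± 0.16, adjusted p = 8.3e-07). A second checkpoint kinase gene, lok, stood at 151 and 241 CPM in females and 58.4, 60.7, 45.6 and 75.8 in males (-1.54 ± 0.25, adjusted p = 0.000282). Smaller differences in the other direction were seen for Cdk1, the mitotic kinase gene, at 352 and 372 CPM in females and 497, 486, 518 and 453 in males (0.62 ± 0.15, adjusted p = 0.00365). The gene fzy, an activator of cyclin destruction, stood at 466 and 429 CPM in females and 609, 624, 667 and 677 in males (0.71 ± 0.13, adjusted p = 0.000754), and it overlaps cact.

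DNA replication genes gave equal numbers in both directions, 7 higher and 7 lower of 19. With upper quartile scaling the lower ones numbered 4. Of all tested genes 34.5% were higher and 27.5% lower, so these counts are not read as a trait of the list. Orc1, of the origin recognition complex, stood at 188 and 209 CPM in females and 37.2, 35, 20.0 and 33.3 in males (-2.50 ± 0.36, adjusted p = 0.000127). RnrL, the large subunit of ribonucleotide reductase, stood at 249 and 341 CPM in females and 39.1, 51, 33.5 and 45.4 in males (-2.64 ± 0.21, adjusted p = 1.72e-06). Both were lower in all 4 males. PCNA, the sliding clamp, was higher in males at 284 and 306 CPM in females and 479, 453, 346 and 436 in males (0.71 ± 0.14, adjusted p = 0.00113). Mcm7, of the replicative helicase, stood at 88 and 80.02 CPM in females and 147, 167, 172 and 131 in males (1.06 ± 0.19, adjusted p = 0.000619). DNApol-alpha180, the catalytic subunit of the priming polymerase, stood at 33.6 and 43.4 CPM in females and 71.2, 72, 8.2 and 93.3 in males and did not pass (0.79 ± 0.68, adjusted p = 0.322). In this gene male 3 lay below both females and the other 3 males above them, and without male 3 it passed (adjusted p = 0.0325).

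Among regulators of genome activation, 10 of 13 were lower in males and 2 higher. The lower ones numbered 6 without female 1 and 6 with upper quartile scaling. The level of zld, the activator of the early zygotic genome (chromosome arm X, bases 19766465 to 19783548, minus strand), stood at 832 and 631 CPM in females and 104, 184, 114 and 223 in males (-2.08 ± 0.25, adjusted p = 2.58e-05). BigH1, the embryonic linker histone, stood at 364 and 506 CPM in females and 45.7, 42.8, 80.4 and 56.2 in males (-2.74 ± 0.33, adjusted p = 3.15e-05). The RNA of ttk, a repressor of early zygotic genes, stood at 63.6 and 75.7 CPM in females and 0.447, 1.13, 0.914 and 1.22 in males (-6.06 ± 0.63, adjusted p = 9.82e-06). No male reached the lower female for these 3. Expression of nej, the CBP acetyltransferase gene, stood at 1123 and 899 CPM in females and 142, 332, 273 and 489 in males (-1.56 ± 0.31, adjusted p = 0.00103). Clamp, which recruits the MSL complex, stood at 275 and 262 CPM in females and 114, 134, 165 and 131 in males (-0.79 ± 0.31, adjusted p = 0.0436). For Clamp 10 of 17 alternative settings ended the call, adjusted p from 0.00578 to 0.417. Trl, the GAGA factor gene, overlapped between groups at 10.2 and 6.88 CPM in females and 9.71, 10.4, 9.86 and 13.8 in males (0.52 ± 0.33, adjusted p = 0.188). It was higher with DESeq2 (adjusted p = 0.0487) and with upper quartile scaling (adjusted p = 0.0196). The level of opa, a regulator that acts late in the cycle, stood at 0.518 and 0.415 CPM in females and 323, 353, 6.12 and 392 in males (9.28 ± 1.68, adjusted p = 0.000619). The RNA of grh, an epithelial factor gene, stood at 2.49 and 1.962 CPM in females and 66.5, 61.8, 14.6 and 127 in males (5.04 ± 0.89, adjusted p = 0.000519).

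**Figure D2:**
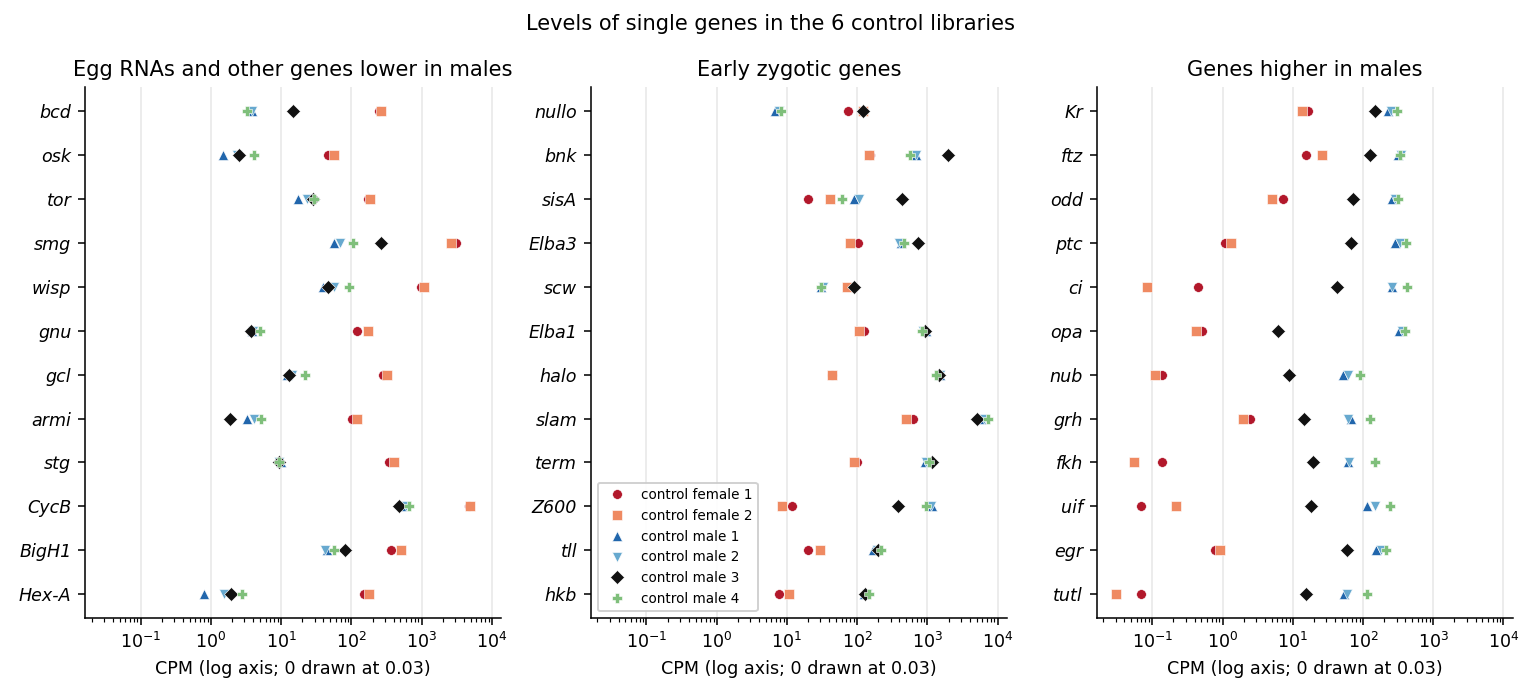
CPM (log axis) of 36 genes in the 6 control libraries, 1 symbol for each library. Red and orange are females, the black diamond is male 3. In the left panel both females lie above all 4 males. In the middle panel male 3 lies above the other males for nullo, bnk, sisA, Elba3, scw and, by less, term. In the right panel it lies below the other males for every gene drawn and above both females.

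Early zygotic genes of cellularization were mostly higher in males. Of 16 tested of 17 listed, 11 were higher and 1 lower in males, and 4 did not pass, with a median log2 fold change of 2.72. Without male 3 the lower ones numbered 2. The lower one was scra, the anillin gene, which the mother also supplies, at 515 and 542 CPM in females and 214, 248, 111 and 303 in males (-1.13 ± 0.22, adjusted p = 0.00114). The gene Sry-alpha is listed at 0 throughout. Expression of slam, which guides membrane growth at the furrow (chromosome arm 2L, bases 6372388 to 6377284, plus strand), stood at 614 and 487 CPM in females and 5789.6, 6373, 5109 and 7347 in males (3.64 ± 0.22, adjusted p = 4.86e-07). The level of halo, a regulator of lipid droplet movement, stood at 43.2 and 43.3 CPM in females and 1519, 1490.4, 1445 and 1316 in males (5.24 ± 0.34, adjusted p = 6.76e-07). The RNA of term stood at 98.1 and 89.7 CPM in females and 928, 955, 1179 and 1063 in males (3.64 ± 0.27, adjusted p = 1.29e-06). In these 3 genes male 3 was close to the other males. The insulator gene Elba1 stood at 127 and 107 CPM in females and 942, 874, 921 and 832 in males (3.11 ± 0.27, adjusted p = 2.82e-06). Elba3, of the same complex, stood at 103 and 79.96 CPM in females and 414, 398, 726 and 465 in males (2.66 ± 0.45, adjusted p = 0.000404), highest in male 3. Elba2, the remaining subunit gene, stood at 693 and 665 CPM in females and 996, 1040.3, 1297 and 1096 in males (0.90 ± 0.28, adjusted p = 0.0157), a call lost without either female (adjusted p = 0.0696 and 0.105).

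Several transient genes of this group separated male 3 from the other males. Expression of nullo, needed for stable furrow canals, stood at 74.6 and 120.4 CPM in females and 6.71, 7.6, 122 and 8.14 in males, with males 1, 2 and 4 below both females and male 3 above them. It did not pass over the 4 males (-1.10 ± 1.21, adjusted p = 0.441) and passed as lower in males without male 3 (log2 fold change -3.59, adjusted p = 0.00386). The level of bnk, which delays basal closure of the cells, stood at 151 and 149 CPM in females and 685, 679, 1986 and 561 in males (2.95 ± 0.72, adjusted p = 0.00396), highest in male 3. The X-linked signal element sisA, a regulator of Sxl, was likewise highest in male 3 at 20.1 and 41.5 CPM in females and 91.1, 108, 428 and 61 in males (2.77 ± 0.86, adjusted p = 0.0147). The call was lost without female 1 (adjusted p = 0.12) and without female 2 (adjusted p = 0.0512). The X signal element sc was lower in males at 26.2 and 63.8 CPM in females and 1.5, 1.77, 3.8 and 1.43 in males (-4.16 ± 0.78, adjusted p = 0.000778). The neuroblast factor gene wor was lower at 8.25 and 5.91 CPM in females and 0, 0.212, 0.686 and 0.0529 in males (-4.61 ± 1.09, adjusted p = 0.0033). The RNA of run, a further X-linked element and a pair-rule gene, stood at 32.6 and 68.2 CPM in females and 134, 149, 36.6 and 167 in males (1.41 ± 0.45, adjusted p = 0.017), with male 3 between the females. That call was lost without female 1 (adjusted p = 0.17). Of 11 tested proneural and X signal element genes, 4 were higher and 3 lower in males. These are near the shares of all tested genes, 34.5% higher and 27.5% lower.

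Gap and head gap genes gave 13 higher and 2 lower in males of 16, with a median log2 fold change of 4.10. Of the 16, 2 had no count in the females and could only be higher. Kr, the central gap gene, stood at 16.4 and 13.5 CPM in females and 228, 249.6, 149.8 and 309 in males (4.12 ± 0.36, adjusted p = 3.48e-06). Expression of kni, of the abdomen, stood at 10.5 and 5.91 CPM in females and 194, 212, 104 and 241 in males (4.65 ± 0.44, adjusted p = 5.24e-06). Male 3 was the lowest male in both. The terminal gap gene tll stood at 20.2 and 29.7 CPM in females and 166, 193, 196 and 215 in males (3.13 ± 0.37, adjusted p = 2.89e-05). Its partner hkb stood at 7.6 and 10.6 CPM in females and 125, 139, 129.7 and 149 in males (4.08 ± 0.32, adjusted p = 1.7e-06). The 4 males were close together in these terminal genes. The level of hb, which has a maternal and a zygotic transcript, overlapped at 267 and 268 CPM in females and 227, 247, 512 and 290.3 in males (0.47 ± 0.35, adjusted p = 0.251), with male 3 highest. It passed as higher with upper quartile scaling (adjusted p = 0.0241). The RNA of cad, the posterior factor supplied by the mother and by the embryo, was lower at 645 and 660.3 CPM in females and 50.2, 54.4, 187 and 86.7 in males (-2.55 ± 0.51, adjusted p = 0.00112). Expression of cnc, a head gene, was the other lower member at 162 and 193 CPM in females and 16.4, 18.2, 3.2 and 30.4 in males (-3.26 ± 0.60, adjusted p = 0.000716). Other members were nearly absent from the females. Expression of fkh, a factor of the gut primordia, stood at 0.138 and 0.0553 CPM in females and 60.3, 63.9, 19.3 and 148 in males (9.66 ± 0.98, adjusted p = 8.55e-06). The level of nub, a POU factor gene that overlaps another gene, stood at 0.138 and 0.111 CPM in females and 51.3, 61.8, 8.77 and 91.3 in males (8.82 ± 1.13, adjusted p = 4.99e-05).

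Pair-rule genes gave 10 higher and 1 lower of 11. Of the 11, 1 had no count in the females and could only be higher. The RNA of eve stood at 21.8 and 22.3 CPM in females and 145, 173, 112 and 155 in males (2.89 ± 0.27, adjusted p = 5.52e-06). The level of ftz stood at 15.4 and 26.4 CPM in females and 317, 343, 125 and 339 in males (3.90 ± 0.49, adjusted p = 3.87e-05). Expression of odd stood at 7.36 and 5.06 CPM in females and 258, 287, 72.6 and 316 in males (5.36 ± 0.53, adjusted p = 7.72e-06). These genes, which divide the embryo into alternating stripes, were lowest in male 3 among the males. Expression of prd, which acts after the first stripe genes, stood at 4.63 and 3.23 CPM in females and 65.3, 69.8, 32.7 and 55 in males (3.98 ± 0.37, adjusted p = 4.95e-06). The level of h, a primary stripe gene, stood at 23.5 and 12 CPM in females and 198, 209, 66.2 and 249 in males (3.47 ± 0.63, adjusted p = 0.0006). The lower member was ftz-f1, the nuclear receptor partner of Ftz that the mother supplies, at 241 and 193 CPM in females and 3.2, 6.19, 23.1 and 11.3 in males (-4.08 ± 0.77, adjusted p = 0.000786).

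Segment polarity genes, which act within segments after the pair-rule genes, gave 8 higher and none lower of 12 tested, and 4 higher without female 2 or with a minimum of 10 CPM. The median log2 fold change was 3.27, or 2.94 with members that had no female count at their lower bounds. There were 2 such members among those tested, and they could only be higher. The RNA of ptc, the Hedgehog receptor, stood at 1.07 and 1.33 CPM in females and 289, 339.6, 68 and 412 in males (7.97 ± 0.78, adjusted p = 7.23e-06). Expression of ci, the transcription factor of the pathway, stood at 0.449 and 0.0829 CPM in females and 259, 259.7, 43 and 426 in males (10.02 ± 1.49, adjusted p = 0.000149). The level of nkd, an inhibitor of Wingless signalling, stood at 2.21 and 1.02 CPM in females and 81.2, 84.4, 1.89 and 124 in males (5.60 ± 1.65, adjusted p = 0.0114), with male 3 inside the range of the females. The call was lost without female 1 (adjusted p = 0.0607) and without female 2 (adjusted p = 0.0965). The ligand gene wg was low in every library, at 0.898 and 0.442 CPM in females and 5.85, 6.37, 3.4 and 7.53 in males (3.25 ± 0.64, adjusted p = 0.00104). The ligand gene hh was at 0.207 and 0.0553 CPM in females and 1.02, 0.495, 1.57 and 1.37 in males (3.28 ± 0.89, adjusted p = 0.0072), a call lost without female 2 (adjusted p = 0.0826). In ptc, ci and wg both females lay below every male. The pair-rule target gsb, with no count in the females, stood at 0.575, 0.354, 0.257 and 0.449 CPM in the males, at least 8.88-fold higher.

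Hox genes and their cofactors gave 9 higher of 11, 4 without female 2 and 3 with a minimum of 10 CPM. The median log2 fold change was 5.60, or 4.85 with the 3 members that had no female count set to their lower bounds. Those 3 passed the filter on low counts only through other libraries, so they could only be higher. Expression of tsh, a trunk factor gene, stood at 0.553 and 0.221 CPM in females and 31.2, 32.5, 2.86 and 48.2 in males (6.33 ± 1.25, adjusted p = 0.00111). The level of abd-A, of the abdomen, stood at 0.207 and 0.0553 CPM in females and 3.9, 4.7, 0.657 and 4.71 in males (4.85 ± 1.10, adjusted p = 0.00262). The RNA of hth, a Hox cofactor gene, stood at 0.173 and 0.0829 CPM in females and 5.18, 5.59, 3.29 and 112 in males, with male 4 far above the other males (8.003 ± 2.40, adjusted p = 0.0125). The call was lost without female 1 (adjusted p = 0.0755) and without female 2 (adjusted p = 0.0968). Every Hox cofactor and trunk gene named here was lowest in female 2. Expression of exd, the partner of hth supplied by the mother, stood at 274 and 223 CPM in females and 320.1, 337, 333 and 404 in males (0.66 ± 0.15, adjusted p = 0.00306), a call lost without female 2 (adjusted p = 0.0653).

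Zygotic dorsoventral genes were mostly higher in males. In the mesoderm and neurogenic ectoderm 13 of 17 tested were higher and 1 lower. That gene was Mef2, a muscle transcription factor gene, at 28.2 and 50.7 CPM in females and 14.3, 16.1, 3.29 and 8.94 in males (-1.73 ± 0.65, adjusted p = 0.0353). For Mef2 6 of 17 alternative settings ended the call, adjusted p from 0.0231 to 0.224, among them leaving out either female, male 3 or male 4. The mesoderm median log2 fold change was 4.46, or 4.15 with members that had no female count at their lower bounds. There were 2 such members in the mesoderm and neurogenic list, and they could only be higher. In the dorsal ectoderm and amnioserosa 10 of 13 were higher and 1 lower. The level of twi, the mesoderm activator, stood at 13.4 and 13.7 CPM in females and 284, 284, 179.6 and 318 in males (4.46 ± 0.28, adjusted p = 6.76e-07). The RNA of sna, its partner repressor, stood at 24.3 and 36.5 CPM in females and 167, 186, 103 and 222 in males (2.63 ± 0.30, adjusted p = 1.8e-05). Expression of vnd, a factor of the ventral neuroectoderm, was as high in male 3 as in the others at 0.622 and 0.47 CPM in females and 26.3, 32.7, 31.6 and 39 in males (6.06 ± 0.43, adjusted p = 1.1e-06). The level of rho, a protease of EGF signalling in the same region, was lowest in male 3 at 4.28 and 2.54 CPM in females and 39.7, 39.5, 6.26 and 52.6 in males (3.45 ± 0.70, adjusted p = 0.00134). In all 4 of these genes every male lay above both females. The gene pyr, a ligand for the FGF receptor of the mesoderm, had no count in the females and 6.23, 8.66, 0.686 and 8.54 CPM in the males, at least 131-fold higher. Expression of dpp, the dorsal morphogen, stood at 6.01 and 6.41 CPM in females and 68.8, 76.9, 33.3 and 85.6 in males (3.56 ± 0.45, adjusted p = 4.24e-05). The level of tld, the protease that frees it, stood at 23.4 and 18.6 CPM in females and 195, 217, 196 and 202 in males (3.44 ± 0.24, adjusted p = 8.3e-07). The RNA of scw, the partner ligand of dpp, did not pass at 89.7 and 71.7 CPM in females and 30.7, 32.1, 88.7 and 30.4 in males (-0.59 ± 0.63, adjusted p = 0.425), with male 3 at the level of the females. The lower member of the dorsal list was peb, a zinc finger factor gene of the amnioserosa, at 14.4 and 14.9 CPM in females and 1.47, 1.27, 3.49 and 4.73 in males (-2.24 ± 0.50, adjusted p = 0.00242).

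Genes of tissue movement passed in both directions, against 34.5% of all tested genes higher and 27.5% lower. The share lower in the gastrulation and germband list was near that of all tested genes. Of 11 gastrulation and germband genes 6 were higher and 3 lower, the lower ones 1 without female 1, female 2 or male 1, with RLE or upper quartile scaling, and with the control libraries alone. The Toll receptor gene 18w, which acts in germband extension, stood at 1.14 and 0.387 CPM in females and 151, 145, 46.5 and 165 in males (7.53 ± 1.24, adjusted p = 0.000316). Its relative Tollo stood at 2.11 and 1.11 CPM in females and 56.1, 62.2, 32.5 and 87.2 in males (5.35 ± 0.63, adjusted p = 2.72e-05). Expression of stumps, an adaptor of FGF signalling in the mesoderm, stood at 0.0691 and 0.138 CPM in females and 30.3, 40.5, 2.31 and 40.4 in males (8.13 ± 1.54, adjusted p = 0.000837). The 3 genes were higher in every male than in either female. The level of fog, the ligand that drives apical constriction, was lower in males at 86.5 and 89.9 CPM in females and 3.36, 5.23, 6.63 and 7.77 in males (-3.76 ± 0.30, adjusted p = 1.87e-06). In the Notch and Bearded family 8 of 13 were higher and 2 lower, the lower ones 1 without male 1, male 2 or either female. The Bearded gene Tom stood at 29.8 and 23.7 CPM in females and 386, 406, 221 and 329.8 in males (3.81 ± 0.50, adjusted p = 6.22e-05). N, the receptor, was lower at 226 and 215 CPM in females and 42.2, 58.4, 17.3 and 87.6 in males (-1.98 ± 0.51, adjusted p = 0.00569). Of 13 receptor tyrosine kinase pathway genes 5 were higher and 5 lower, with 8 higher under upper quartile scaling. Of all tested genes 34.5% were higher and 27.5% lower, so these counts are not read as a trait of the list. The EGF receptor gene Egfr stood at 8.22 and 6.58 CPM in females and 113, 127, 90.4 and 208 in males (4.33 ± 0.50, adjusted p = 2.16e-05). Its ligand gene spi stood at 3.35 and 5.86 CPM in females and 139.9, 164, 38.9 and 147 in males (4.87 ± 0.64, adjusted p = 6.01e-05), lowest in male 3. The gene csw, a phosphatase of Torso signalling, was lower at 219 and 204 CPM in females and 4.19, 3.93, 18.2 and 4.04 in males (-4.53 ± 0.75, adjusted p = 0.00033).

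Cell death genes gave 5 higher and 1 lower of 10, with 8 higher under upper quartile scaling. Of all tested genes 34.5% were higher and 27.5% lower. Among the 10, 1 had no count in the females and could only be higher. The RNA of rpr, an inhibitor of caspase inhibitors, stood at 0.0691 and 0.0829 CPM in females and 18.6, 19.7, 16.6 and 19.1 in males (8.02 ± 0.96, adjusted p = 2.96e-05), with the 4 males close together. Expression of egr, a ligand of the TNF family, stood at 0.794 and 0.912 CPM in females and 153, 183, 59.8 and 211 in males (7.60 ± 0.73, adjusted p = 6.37e-06). The gene skl, of the same function as rpr, stood at 0.414 and 0.166 CPM in females and 3.87, 4.21, 2.66 and 4.94 in males (3.91 ± 0.69, adjusted p = 0.000518). Debcl, a Bcl-2 family gene, was lower at 33.1 and 48.8 CPM in females and 6.04, 4.92, 5.66 and 4.12 in males (-2.78 ± 0.30, adjusted p = 1.2e-05).

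Glycolysis genes were lower in males in 8 of 11 tested and higher in 2, or in 1 without female 1, with a median log2 fold change of -2.19. Hex-A, the hexokinase at the start of the pathway (chromosome arm X, bases 9585675 to 9589813, plus strand), stood at 151 and 178 CPM in females and 0.799, 1.52, 1.91 and 2.75 in males (-6.38 ± 0.48, adjusted p = 1.35e-06), the lowest fold change among genes of at least 4 CPM by geometric mean whose groups did not overlap. Eno, the enolase gene, stood at 1046 and 1449 CPM in females and 83.3, 84.7, 59.1 and 101 in males (-3.76 ± 0.25, adjusted p = 7.44e-07). PyK, the pyruvate kinase gene at the end of the pathway, stood at 80.8 and 138 CPM in females and 4.6, 4.28, 5.09 and 9.04 in males (-4.08 ± 0.35, adjusted p = 3.15e-06). All 4 males lay below both females in these 3 enzymes. Ldh, the lactate dehydrogenase gene, was higher at 0.414 and 0.304 CPM in females and 13.1, 17, 7.6 and 16.8 in males (5.38 ± 0.61, adjusted p = 2.01e-05). Pgi, the glucose-6-phosphate isomerase gene, was higher at 3.9 and 6.19 CPM in females and 35.8, 39.9, 7.94 and 31.4 in males (2.65 ± 0.66, adjusted p = 0.0045), a call lost without female 1 (adjusted p = 0.0548). Summed over the matched members of the list, glycolysis genes held 1864 to 2592 CPM in females and 205 to 319 CPM in males.

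Heat shock genes divided by member, 4 lower and 1 higher of 9, the higher ones 0 without female 1 and 2 without male 3. Of all tested genes 34.5% were higher and 27.5% lower, so the counts of these 9 genes are not read as a trait of the list. Hsp27, a small heat shock protein gene expressed in the ovary, stood at 484 and 809.6 CPM in females and 12.5, 9.48, 11.4 and 16.2 in males (-5.53 ± 0.42, adjusted p = 1.44e-06). Hsp83, the Hsp90 gene, stood at 448 and 721 CPM in females and 90.6, 92.6, 40.6 and 153 in males (-2.49 ± 0.33, adjusted p = 6.04e-05). The small heat shock gene Hsp26 stood at 121 and 233 CPM in females and 24.1, 22.3, 27 and 22.9 in males (-2.68 ± 0.31, adjusted p = 2.43e-05). All 4 males lay below both females for these 3. The member higher in males was Hsp23, at 79.9 and 141 CPM in females and 154, 207, 249 and 155 in males (1.00 ± 0.31, adjusted p = 0.0157), a call lost without female 1 (adjusted p = 0.179). Hsc70-4, the constitutive Hsp70, did not pass at 5399.9 and 5344 CPM in females and 5259.9, 5181, 4911 and 4967 in males (0.10 ± 0.12, adjusted p = 0.481). Its CPM was lower in every male than in either female, whereas the fold change with TMM scaling was above 0. It passed as higher in males with upper quartile scaling (adjusted p = 0.00109) and with a minimum of 10 CPM (adjusted p = 0.0284), and its direction reversed with total count scaling.

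Ribosomal protein and mitochondrial genes were higher in males by similar folds. Of 79 cytoplasmic ribosomal protein genes tested, 78 were higher and none lower, with a median log2 fold change of 1.06 and a range from 0.80 to 1.86. They took 10.4 to 11.8% of counts in females and 15.2 to 22.8% in males. All 13 protein genes of the mitochondrial genome were higher, with a median log2 fold change of 0.89. Without female 2, 5 of them passed. Against 34.5% of all tested genes higher, the noncoding classes gave 34 of 44 tested snoRNA genes, 189 of 366 genes of the ncRNA class and 2 of 14 snRNA genes higher. Lower were 0 snoRNA genes, 5 ncRNA genes and 1 snRNA gene. The libraries were made from polyadenylated RNA. Whether counts on these classes come from the noncoding RNAs or from overlapping genes was not tested.

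**Figure D3:**
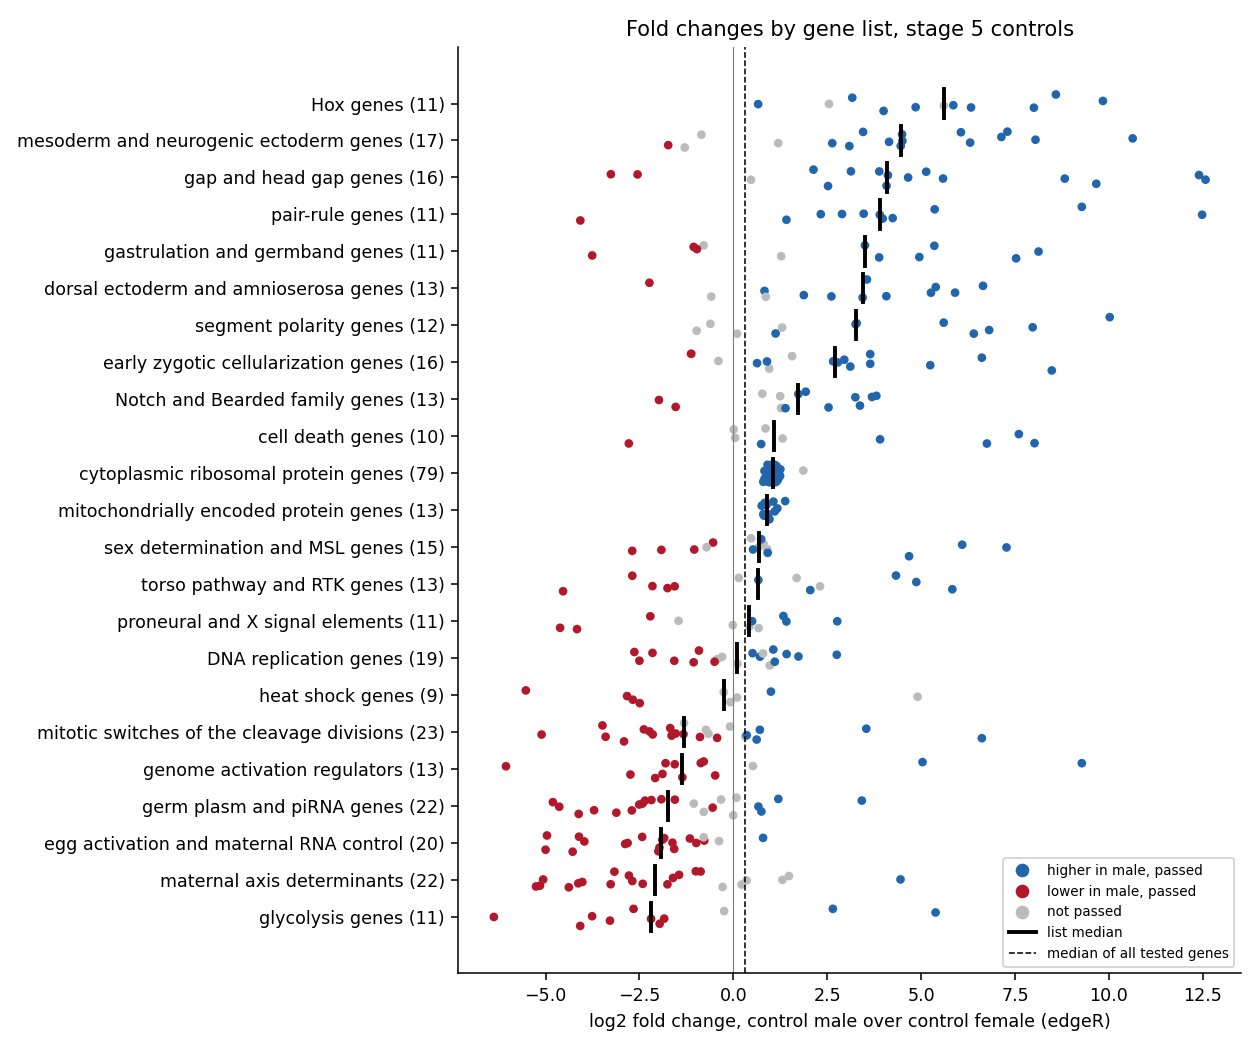
Log2 fold change of each tested member of 23 gene lists, male over female, 1 point for each gene with the number tested in brackets. Black bars are list medians and the dashed line is the median of all tested genes, 0.32. The list medians run from -2.19 for glycolysis to 5.60 for Hox genes, and mitochondrial and ribosomal protein genes form narrow groups.

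The genes furthest apart between the groups, among those of at least 4 CPM by geometric mean, included genes outside these lists. The higher ones were nearly absent from the females. The immunoglobulin family gene tutl had 2 counts over both females and stood at 53.2, 60.0, 15.3 and 114.8 CPM in the males. The pooled ratio was 2027, with a 95% Poisson interval of 561 to 16736 that covers counting error only. The RNA of uif, a transmembrane protein gene, stood at 0.0691 and 0.221 CPM in females and 115.5, 149.6, 18.4 and 244 in males (9.84 ± 1.52, adjusted p = 0.000196). Gp150, a membrane glycoprotein gene, stood at 0.449 and 0.276 CPM in females and 284, 300.4, 57.4 and 385 in males (9.60 ± 0.98, adjusted p = 8.88e-06). Both were lowest in male 3 among the males. HmgZ, a high mobility group protein gene that overlaps HmgD, stood at 0.207 and 0.221 CPM in females and 149, 158, 41.3 and 150.1 in males (9.29 ± 0.98, adjusted p = 1.11e-05). Expression of dib, a Halloween gene of ecdysone synthesis, stood at 0 and 0.111 CPM in females and 57.9, 72, 2.49 and 62.9 in males (9.69 ± 1.65, adjusted p = 0.000396). Male 3 was the lowest male for each of these. On the lower side Lsd-2, a lipid droplet perilipin gene, stood at 720.3 and 903 CPM in females and 5.85, 6.82, 14.7 and 9.76 in males (-6.24 ± 0.54, adjusted p = 3.15e-06). The gene egl, an adaptor for RNA transport, stood at 59.7 and 92.6 CPM in females and 0.927, 1.17, 1.03 and 1.3 in males (-5.93 ± 0.63, adjusted p = 1.2e-05). The kinase gene cdi stood at 160.4 and 184 CPM in females and 1.95, 3.75, 2.06 and 4.28 in males (-5.69 ± 0.29, adjusted p = 2.07e-07). In these genes all 4 males lay far below both females.

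The 4 male libraries differed among themselves in a way that followed gene span. Protein-coding genes higher in males than in females were sorted by the length of their annotated span. The deviation of each male library from the mean of the 4 was taken on log2 CPM with TMM scaling and a pseudocount of 0.5. In genes of up to 2000 bases (n = 1354) the median deviation was 0.18 in male 3 and -0.21 in male 4. In genes of 8001 to 16000 bases (n = 210) it was -0.44 in male 3 and 0.30 in male 4. Above 32000 bases (n = 114) these were -0.56 and 0.44. Males 1 and 2 stayed between -0.02 and 0.18 in every class. These deviations describe single embryos and were given no test.

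**Figure D4:**
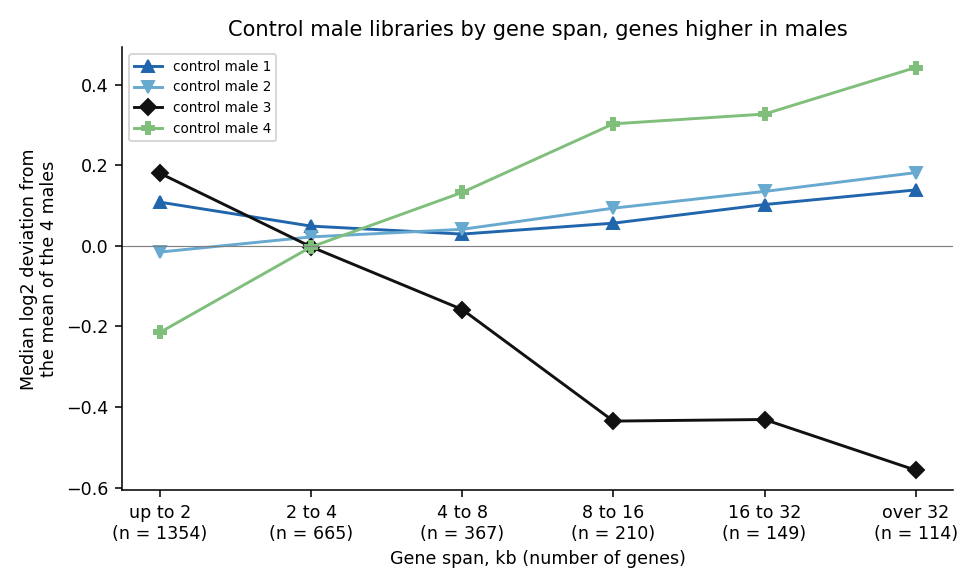
Median log2 deviation of each control male library from the mean of the 4 male libraries, for protein-coding genes higher in males in 6 classes of gene span in kb, with the number of genes under each class. Male 3 falls from 0.18 to -0.56 from the shortest to the longest class, and male 4 goes from -0.21 to 0.44.

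Male 3 was often at either end of the male range. Of the genes higher in males it was the lowest male in 40.6% and the highest in 39.8%. Of the genes lower in males it was the highest male, and so the nearest to the females, in 35.3% and the lowest in 42.9%. Male 4 was the highest in 39.7% of them. Without male 3, 5910 genes passed, of which 5416 also passed in the same direction over all 4 males.

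Gene structure differed between the directions of change. Protein-coding genes lower in males had a median span of 4059.5 bases (n = 2468), those higher 2138 bases (n = 2859) and those that did not pass 2528 bases (n = 3193). Genes with a single exon in every annotated transcript made up 5.39%, 13.5% and 10.3% of these classes. Of 849 tested single-exon genes 45.5% were higher and 15.7% lower in males, and of 7671 genes with more exons 32.2% and 30.4%. These are descriptions across genes, which are not replicates.

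The X chromosome was lower relative to the autosomes in the control male libraries than in the control females. The log2 ratio of X-linked to autosomal counts was -2.26 and -2.28 in the females and -2.60, -2.59, -2.52 and -2.53 in the males. The groups did not overlap, with means of -2.27 ± 0.0138 (SD, n = 2) and -2.56 ± 0.0417 (SD, n = 4). The difference of -0.29 gave p = 0.133 in a two-sided exact permutation test, the smallest p that 4 against 2 libraries allow. Of 1510 X-linked genes tested 38.2% were lower and 22.4% higher, and of 7469 autosomal genes 25.4% and 36.8%. Median log2 fold changes were -0.31 on the X and 0.42 on the autosomes. In the mof libraries the log2 ratio was -2.36 and -2.42 in those labelled female. It was -2.49, -2.50, -2.57 and -2.56 in those labelled male, of which replicates 1 and 2 held 3 and 0 Y-linked counts. Embryo age, sex and RNAi line cannot be told apart in the control contrast, and the cause of the lower ratio was not tested.

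At stage 7, where the genotype fields of both sexes name stock 36304, the contrast of control males and females gave few autosomal calls. At stage 5 that field differs between the groups. Of 8717 genes tested 6.22% passed, 0.906% were higher and 5.31% lower in males. X-linked genes made up 83.6% of the called genes, against 16.2% at stage 5. They were 16.6% of the genes tested at each stage, so the stage 5 share of calls was near their share of tested genes. The median log2 fold change at stage 7 was -0.40 on the X and 0.03 on the autosomes, so the gap between them was -0.43 there and -0.73 at stage 5. The 2 stages share no libraries, each table was scaled on its own, and the difference between the stages was not tested. At stage 7 bcd was too low to be tested. Several genes described above that differed widely at stage 5 did not pass at stage 7, such as stg (-0.05 ± 0.09, adjusted p = 0.904), smg (-0.13 ± 0.13, adjusted p = 0.743) and CycB (0.00 ± 0.07, adjusted p = 1). The same held for Kr (-0.07 ± 0.11, adjusted p = 0.847) and Hex-A (0.02 ± 0.32, adjusted p = 0.99).

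**Figure D5:**
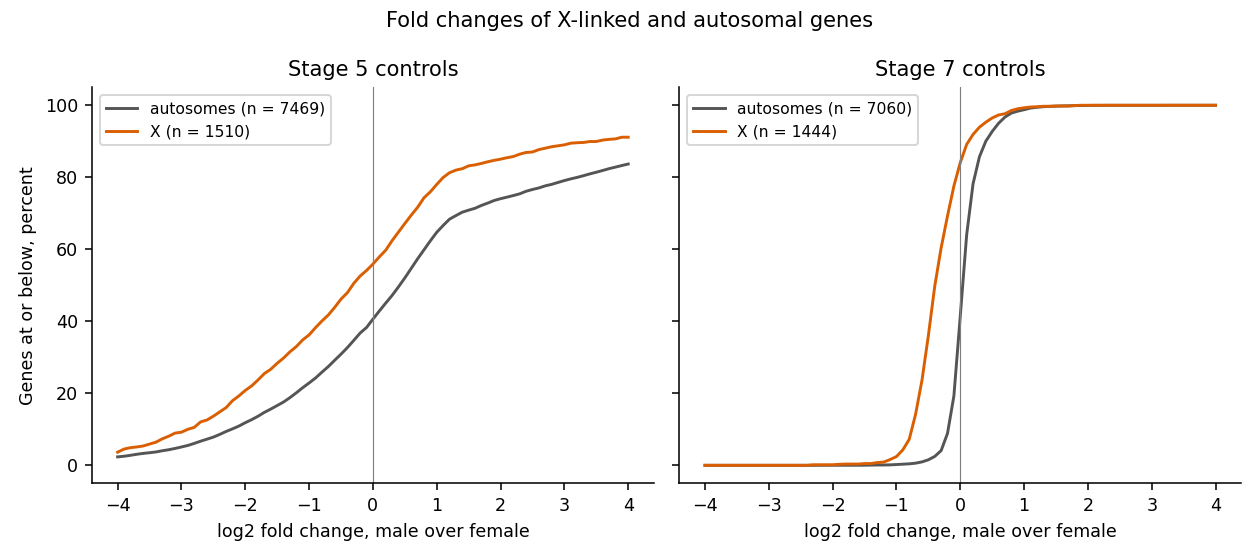
Cumulative percent of tested genes (vertical) at or below a log2 fold change, male over female (horizontal), for X-linked and autosomal genes in stage 5 and stage 7 controls. At stage 5 both curves are broad and the X curve lies to the left. At stage 7 the autosomal curve rises steeply near 0.03 and the X curve near -0.40.

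Of 7650 genes tested at both stages, 343 passed at both, 7.05% of the stage 5 calls and 67.1% of the stage 7 calls. Among the 7650 genes, 4868 passed at stage 5 and 511 at stage 7. Over all genes tested, 62.0% passed at stage 5 and 6.22% at stage 7, so the shared calls were near the shares of any tested gene. Of the 343 genes, 205 were lower in males at both stages, 35 higher at both, 83 higher at stage 5 and lower at stage 7, and 20 the reverse. Among X-linked genes lower in males at stage 7, 47.0% were lower and 18.1% higher at stage 5 (n = 432), and among X-linked genes that did not pass at stage 7 39.3% and 23.6% (n = 861).

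The 10 genes with the largest stage 7 fold change among those that passed in the same direction at both stages were all higher in males. Of these, kl-3 and CR41423 are Y-linked and msl-2 was used for the sex labels. Genes with no count in the stage 5 females, among them kl-3, CR41423, roX2 and plh, could only be higher at that stage. At stage 7 kl-3 had no count in any of the 6 females and 0 to 2.73 CPM in the males, with a median of 2.11. For CR41423 the females were likewise at 0, and the males at 0 to 3.11 CPM with a median of 1.88. The X-linked roX2 passed at stage 7 (1.87 ± 0.41, adjusted p = 0.00396). The autosomal genes among the 10 were plh (1.92 ± 0.48, adjusted p = 0.0139), CG11703 (2.29 ± 0.52, adjusted p = 0.00637) and sac (1.68 ± 0.25, adjusted p = 9.7e-05), with Gr63a (1.28 ± 0.32, adjusted p = 0.0118) and CG7724 (1.25 ± 0.36, adjusted p = 0.0372). The remaining one, klhl10, is annotated on an unplaced scaffold (1.28 ± 0.31, adjusted p = 0.0104). At stage 5 plh had no count in the females and 1.02, 1.98, 0.857 and 1.8 CPM in the males, at least 30.7-fold higher. At that stage sac stood at 0.276 and 0.498 CPM in females and 1.66, 1.27, 0.343 and 2.75 in males (2.07 ± 0.73, adjusted p = 0.0276), with male 3 between the females. The stage 5 calls of kl-3, CR41423, CG11703, sac, Gr63a and CG7724 were each lost without female 1 and without female 2. Among genes lower at both stages, the X-linked Ranbp21, a nuclear transport receptor gene, and Fbxl4 had the lowest fold changes at stage 7; they were named after their values were seen. Ranbp21 stood at 222 and 259 CPM in females and 12.5, 17.1, 10.5 and 21.6 in males at stage 5 (-3.81 ± 0.24, adjusted p = 6.76e-07). Its stage 7 difference was smaller (-1.011 ± 0.22, adjusted p = 0.00345). Fbxl4 stood at 53.4 and 62.2 CPM in females and 9.59, 13.6, 7.29 and 15.3 in males at stage 5 (-2.19 ± 0.33, adjusted p = 0.000155). At stage 7 it was lower as well (-1.011 ± 0.19, adjusted p = 0.00135).

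The egg RNA levels of the control females can be set beside the other 6 stage 5 libraries. The mof RNAi libraries labelled female held 261 and 219.6 CPM of bcd and those labelled male 11.4, 10.6, 1.32 and 1.74 CPM. For stg the values were 215 and 189.9 CPM against 14.4, 6.24, 10.7 and 12 CPM. Among libraries labelled mof male, replicates 1 and 2 held 3 and 0 Y-linked counts and 469 and 400.0 CPM of Sxl. By comparison replicates 3 and 4 held 374 and 383 Y-linked counts and 41.6 and 42.2 CPM. Replicates 1 and 2, whose Y-linked counts go against their label, had bcd and stg at the level of the libraries labelled male. Their Sxl lay far above that of replicates 3 and 4. In the control females, however, Sxl lay below replicates 3 and 4, so its level alone does not settle the label of a library. Leaving replicates 1 and 2 out of the fit gave 3189 genes higher and 2591 lower in control males.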

How the data were processed

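PolyA RNA of single embryos was sequenced with the TruSeq Stranded mRNA kit, per the labels' protocols. The deposited values are raw counts per gene in 1 table for each stage, with 1 column per library, and the authors pooled no libraries, per the file headers. Reads were mapped to dm6, per the submitters' processing notes. No source used here gives the aligner, the counting program or the annotation release. Counts were used as deposited. Groups follow the titles, also for the 2 control females, whose genotype text carries the stock number of the mof line.

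The 12 stage 5 libraries were fitted together with edgeR 4.0.16 in R 4.3.3 (TMM scaling, filterByExpr, 1 mean per group, robust quasi-likelihood fit, no replicate block), and the control male mean was set against the control female mean. The 23 stage 7 libraries were fitted in the same way. The SE was derived as the size of the log2 fold change divided by the square root of the F statistic. Where the females had no count, the fold was bounded from below by setting their sum to 3 counts. Such genes passed the filter on low counts only through other libraries, so their direction was fixed in advance. Genes were matched to the Ensembl annotation of dm6 by symbol, locus tag or synonym at stage 5 and by gene ID at stage 7, which left 112 ambiguous and 116 unmatched of 17558 stage 5 names; dl and Dl, whose names differ only in letter case, count in lists and are not described. The ratio of X-linked to autosomal counts was compared by an exact permutation test in Python 3.11.15. Wilson intervals on Y-linked shares cover counting error only. Genes were named by rule: the 15 highest and 15 lowest fold changes where the groups did not overlap and the mean log2 CPM reached 2, the 4 largest changes in each direction among passing members of each list, a fixed set that includes the genes of the sex labels, and the 10 largest stage 7 changes shared with stage 5. The text gives a part of these; other list members were added for their role, after their values were seen.

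Gene lists and members were chosen with earlier results of these data known; the ribosomal and mitochondrial lists were added after seeing the data. Alternatives were DESeq2 1.42.0, RLE, upper quartile, total count and autosomal TMM scaling, no filter on low counts, a minimum of 10 CPM, the replicate block, the 6 control libraries alone, a fit without the robust option, and leaving out each control library. The edgeR steps were tested on simulated data. Replicate numbers were checked for pairing through the correlation of deviations from group means of same-numbered libraries, which was -0.09 and 0.07 at stage 5, so the numbers were not taken as pairs.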

Additional observations from a re-analysis of the deposited data

Results flagged for a closer look

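Single male libraries stood apart from the other 3 for 25 genes of 226 genes and ratios examined. The measure is the gap to the nearest other library as a share of the range over the 4 control males. It passed Dixon's 95% critical value for 4 libraries, which chance passes in about 1 in 20 groups. The genes examined are those of the text, some added after their values were seen, and all share the same 4 embryos. The 25 genes are therefore not set against that rate. Control male 3 was the highest male for 12 genes, with shares in brackets: bcd (0.9457), swa (0.9112), grk (0.9033), me31B (0.8345), sra (0.8468), twe (0.9585), bnk (0.9129), nullo (0.9876), scw (0.9706), sisA (0.8727), sc (0.8565) and csw (0.9817). It was the lowest male for 6 genes: Myt1 (0.9373), ftz (0.8822), 18w (0.8292), dan (0.8573), HmgZ (0.9206) and CG30089 (0.9054). Control male 4 was the highest male for 7 genes: msl-1 (0.8444), spz (0.8319), gnu (0.8777), rump (0.8886), Trl (0.8418), hth (0.9788) and PyK (0.8304).

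In 4 genes the libraries of the groups were separated without overlap in opposite directions at stages 5 and 7; the difference between the stages was not tested. The stage 5 log2 fold change less the stage 7 value was -2.51 for mof, -1.91 for msl-3, -2.69 for sra, a regulator of egg activation, and 5.04 for brk, a repressor of Dpp target genes. For mof the stage 7 values were 27.7 to 48.4 CPM in females and 52.8 to 202 CPM in males (1.80 ± 0.39, adjusted p = 0.00419).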

How the results depend on the processing

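The genes higher in males numbered 3139 and those lower 2503; with each library left out in turn they ranged from 1932 to 3225 and from 1967 to 2685, with the lowest counts without female 2. With a minimum of 10 CPM, under which fewer genes were tested (5974), 2064 were higher. DESeq2 called 135 genes higher in males at stage 7, against 79 with edgeR. The log2 fold change of Hsc70-4 was 0.10, and -0.081 with total count scaling; it did not pass in either. The cause of the last 2 differences was not tested. With the replicate number as a block 2668 genes were higher and 2274 lower; same-numbered libraries did not deviate together, so the numbers do not pair the embryos. Genes called under each alternative and in the main comparison had the same direction. The difference in X ratio stayed between -0.30 and -0.26, and 4 against 2 libraries cannot reach a p of 0.05.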
